A study of Mus musculus with 15 samples.

Results

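The genes described here encode proteins of the synaptic vesicle and of the machinery that fuses it with the plasma membrane. They were chosen by symbol: synaptotagmins (Syt), synapsins (Syn1 to Syn3), synaptophysin (Syp), synaptoporin (Synpr), synaptogyrins (Syngr), Sv2 proteins, syntaxins (Stx), syntaxin-binding proteins (Stxbp), Vamp and Snap proteins, complexins (Cplx), Rims proteins and Unc13a to Unc13c. The rule took 73 of the 24421 genes counted, and 67 of them had enough reads to be tested. Cplx4, Stx11, Stx19, Syngr4, Syt8 and Vamp7 did not. Vamp7 is listed at 0 reads in all 15 libraries. The annotation places it on an unplaced scaffold, and no source used here says whether reads on it were counted. The 0 therefore sets no limit on its level. Levels are given as CPM, the reads of a gene scaled to the library's total. The rule uses names alone and no measured value.

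Cerebellar RNA of FVB mice was sequenced in 5 libraries for each of 3 genotypes. The controls (WT) were FVB mice with no transgene named. Pcp2-ATXN1[82Q] mice carry human ATXN1, the gene mutated in spinocerebellar ataxia type 1, with 82 glutamines. Pcp2-ATXN1[82Q]V591A;S602D mice, called the substituted genotype here, carry the same expanded protein with the named pair of amino acid changes, which lie where ATXN1 is known to bind the repressor CIC. The Pcp2 promoter drives both transgenes in Purkinje cells, the large inhibitory neurons of the cortex of the cerebellum. The sources used here give no age, sex or founder line, and transgene transcripts were not analysed here. Whether the 5 libraries of a genotype are 5 animals is not stated in the labels, so the p-values below rest on the spread between libraries, part of which may be technical.

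Neurotransmitter is released when a vesicle SNARE protein (Vamp) zips together with target-membrane SNAREs (syntaxin and Snap25). Unc13 and Rims proteins prepare vesicles at the active zone, complexins hold and promote the assembled complex, and synaptotagmins sense calcium, although some of them are known not to bind it. In the cerebellum granule cells release glutamate onto Purkinje cells, and Purkinje cells release GABA onto the deep nuclei, both with this machinery.

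Reads on genes numbered 36467948 to 42818401 per library. Defining markers of the tissue were present: 10 of 10 Purkinje cell markers and 10 of 10 granule cell markers were tested, and in WT their summed levels ran from 8329 to 9467 CPM and from 6312 to 7325 CPM. In ATXN1[82Q] all 10 Purkinje markers fell (summed level 2901 to 3535 CPM), 7 of 10 granule cell markers fell (5140.3 to 5569 CPM) and 10 of 10 microglial markers rose. Of the other lists 6 of 7 oligodendrocyte markers, 5 of 6 astrocyte markers (1 fell) and 3 of 6 interneuron markers rose there as well. Summed levels in WT and ATXN1[82Q] ran from 4848 to 7166 and from 7083 to 8980.5 CPM for oligodendrocytes, from 3451 to 3639 and from 3678 to 4149 CPM for astrocytes, from 519.9 to 636 and from 597 to 673 CPM for interneurons, and from 151 to 176 and from 273 to 306 CPM for microglia. In the substituted genotype 7 Purkinje markers fell (5757 to 8043 CPM), 1 of 6 interneuron markers fell, and no granule cell, microglial, oligodendrocyte or astrocyte marker was called. In tissue RNA, fewer cells of a type and less RNA per cell cannot be told apart. The part of these marker changes in the results below was not tested.

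Some libraries stood apart. Of 19 brainstem neuron markers 5 were tested (Dbh, Prph, Slc5a7, Slc6a2 and Tph2), and Isl1, Phox2a and Slc18a3 had no read in any WT library. Of the 5 tested 4 were called higher in ATXN1[82Q] against WT, and the other was not called (log2 fold change -0.23). In the substituted genotype against WT 0 were called. Relative to the WT mean, the mean log2 level of those 5 was 2.15 and 3.32 in replicates 2 and 5 of ATXN1[82Q], 0.0432 to 0.495 in its other libraries, and 1.56 in replicate 4 of the substituted genotype. The summed level of all 19 ran from 1.14 to 2.17 CPM in WT, from 1.58 to 26.4 CPM in ATXN1[82Q] and from 1.45 to 5.83 CPM in the substituted genotype. Ttr, a choroid plexus transcript, passed 100 CPM in 8 of the 15 libraries, in all 3 genotypes.

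The promoters of 5 members show what precedes genes that went different ways in ATXN1[82Q]: Syt6, Syt2 and Unc13c fell, and Stx1a and Cplx1 rose. Each is the 250 bases before the RefSeq start (GRCm38.p6), 5′ to 3′ on the strand of the gene, with capitals on any match to the motifs searched. The windows are chr3:103574995-103575244 on the plus strand for Syt6, chr1:134646362-134646611 on the plus strand for Syt2 and chr9:73969038-73969287 on the minus strand for Unc13c. Stx1a has chr5:135023232-135023481 on the plus strand and Cplx1 has chr5:108550028-108550277 on the minus strand.
Syt6: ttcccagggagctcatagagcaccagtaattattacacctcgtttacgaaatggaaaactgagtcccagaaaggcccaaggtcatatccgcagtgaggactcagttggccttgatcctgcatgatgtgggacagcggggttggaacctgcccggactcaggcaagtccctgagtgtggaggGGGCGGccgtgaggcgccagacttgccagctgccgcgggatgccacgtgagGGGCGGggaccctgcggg
Syt2: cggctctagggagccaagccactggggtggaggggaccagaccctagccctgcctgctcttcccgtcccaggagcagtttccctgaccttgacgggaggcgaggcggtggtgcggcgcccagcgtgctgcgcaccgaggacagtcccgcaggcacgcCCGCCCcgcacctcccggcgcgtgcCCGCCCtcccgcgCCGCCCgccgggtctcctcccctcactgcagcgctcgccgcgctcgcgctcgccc
Unc13c: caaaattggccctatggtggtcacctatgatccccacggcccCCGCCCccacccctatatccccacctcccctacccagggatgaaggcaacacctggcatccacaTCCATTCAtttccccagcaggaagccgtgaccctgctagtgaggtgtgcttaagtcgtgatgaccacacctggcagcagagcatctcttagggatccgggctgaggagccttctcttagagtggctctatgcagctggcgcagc
Stx1a: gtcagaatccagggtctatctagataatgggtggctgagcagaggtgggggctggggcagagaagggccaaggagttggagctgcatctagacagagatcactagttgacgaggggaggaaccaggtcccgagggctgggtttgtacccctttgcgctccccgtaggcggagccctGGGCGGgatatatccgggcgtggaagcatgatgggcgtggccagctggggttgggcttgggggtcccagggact
Cplx1: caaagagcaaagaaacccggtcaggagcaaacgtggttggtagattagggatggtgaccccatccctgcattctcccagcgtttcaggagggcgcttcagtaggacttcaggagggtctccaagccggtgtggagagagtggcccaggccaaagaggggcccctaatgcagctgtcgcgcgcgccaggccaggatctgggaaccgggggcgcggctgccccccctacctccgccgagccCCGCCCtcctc

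The motifs were the GC box (GGGCGG), the TATA box (TATAAA), the cAMP response element (TGACGTCA) and a pair of octamers known to bind CIC (TGAATGAA and TGAATGGA), each searched on both strands. None overlaps another in these 5 windows. The capitals are GC boxes except for the second run in Unc13c, which is the TGAATGGA octamer read on the other strand. Of the 73 members 55 have an entry, and 51 of those start within 1 kb of the GENCODE start. A GC box stood in 36 of these 51 (70.6%), against 32.7% of all 32817 windows of this length, and the median GC content was 62.0% against 52.4%. A TATA box stood in 2 (Stx3 and Sv2b) against 12.4% of all windows, and a cAMP response element in 2 (Stxbp3 and Syn1) against 1.55%. TGAATGAA stood in 0 of 51 against 1.08%, and TGAATGGA in 1, Unc13c, against 1.01%. A match is only a run of letters, and these windows show no binding.

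Levels of different genes were compared as CPM per kilobase of exon. Among the most abundant members in WT were Snap25 (528 ± 28.1, SD, n = 5), Cplx1 (383 ± 10.7), Vamp2 (245 ± 3.95), Cplx2 (185 ± 22.3) and Syp (181 ± 5.22). Cplx2 and Syp did not differ beyond their spread. At the foot of the tested members stood Vamp5 (0.810 ± 0.156), Cplx3 (0.698 ± 0.161), Syt16 (0.267 ± 0.0574) and Syt15 (0.238 ± 0.0309), and neither Vamp5 and Cplx3 nor Syt16 and Syt15 differed beyond their spread. In ATXN1[82Q] the first place passed to Cplx1 (430 ± 20.2), with Snap25 second (390 ± 16.6), though without division by length Snap25 stayed first and Cplx1 was at rank 4. In the substituted genotype Snap25 led (496 ± 20.8) ahead of Cplx1 (402 ± 20.2).

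The first comparison asks what the expanded protein in Purkinje cells changes among these transcripts. In ATXN1[82Q] against WT, 23 members fell and 12 rose, out of 67 tested (34.3% and 17.9%). Over all 15843 genes tested 14.9% fell and 16.6% rose (31.5% in either direction), so the share that fell was larger among the members and the share that rose was near that of all genes. Calls are at an adjusted p under 0.05 in edgeR's quasi-likelihood test. The median log2 fold change of the members was -0.02, against 0.01 over all genes. In 15 members all ATXN1[82Q] libraries lay below all WT libraries and in 6 above, against 9.79% and 9.36% of all genes.

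The active zone and priming genes had 5 of 7 lower and 1 higher, the SNARE regulators 4 and 3 of 9, and the vesicle membrane and pool genes 3 and 3 of 11. The calcium sensors, a group that takes every synaptotagmin by name whether or not it binds calcium, had 7 and 3 of 16. Target SNAREs had 3 lower and 1 higher of 17, vesicle SNAREs 0 and 1 of 6, and the adaptor of vesicle endocytosis Snap91 fell. The falls lay mostly among abundant members: at a mean log2 CPM of 7 or more 14 of 25 members fell and 1 rose, and under it 9 of 42 fell and 11 rose. Genes in general had the same slant, with 37.4% lower and 8.02% higher at or above that level, and 11.7% and 17.8% under it. That level was chosen after the values were seen.

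**Figure D1:**
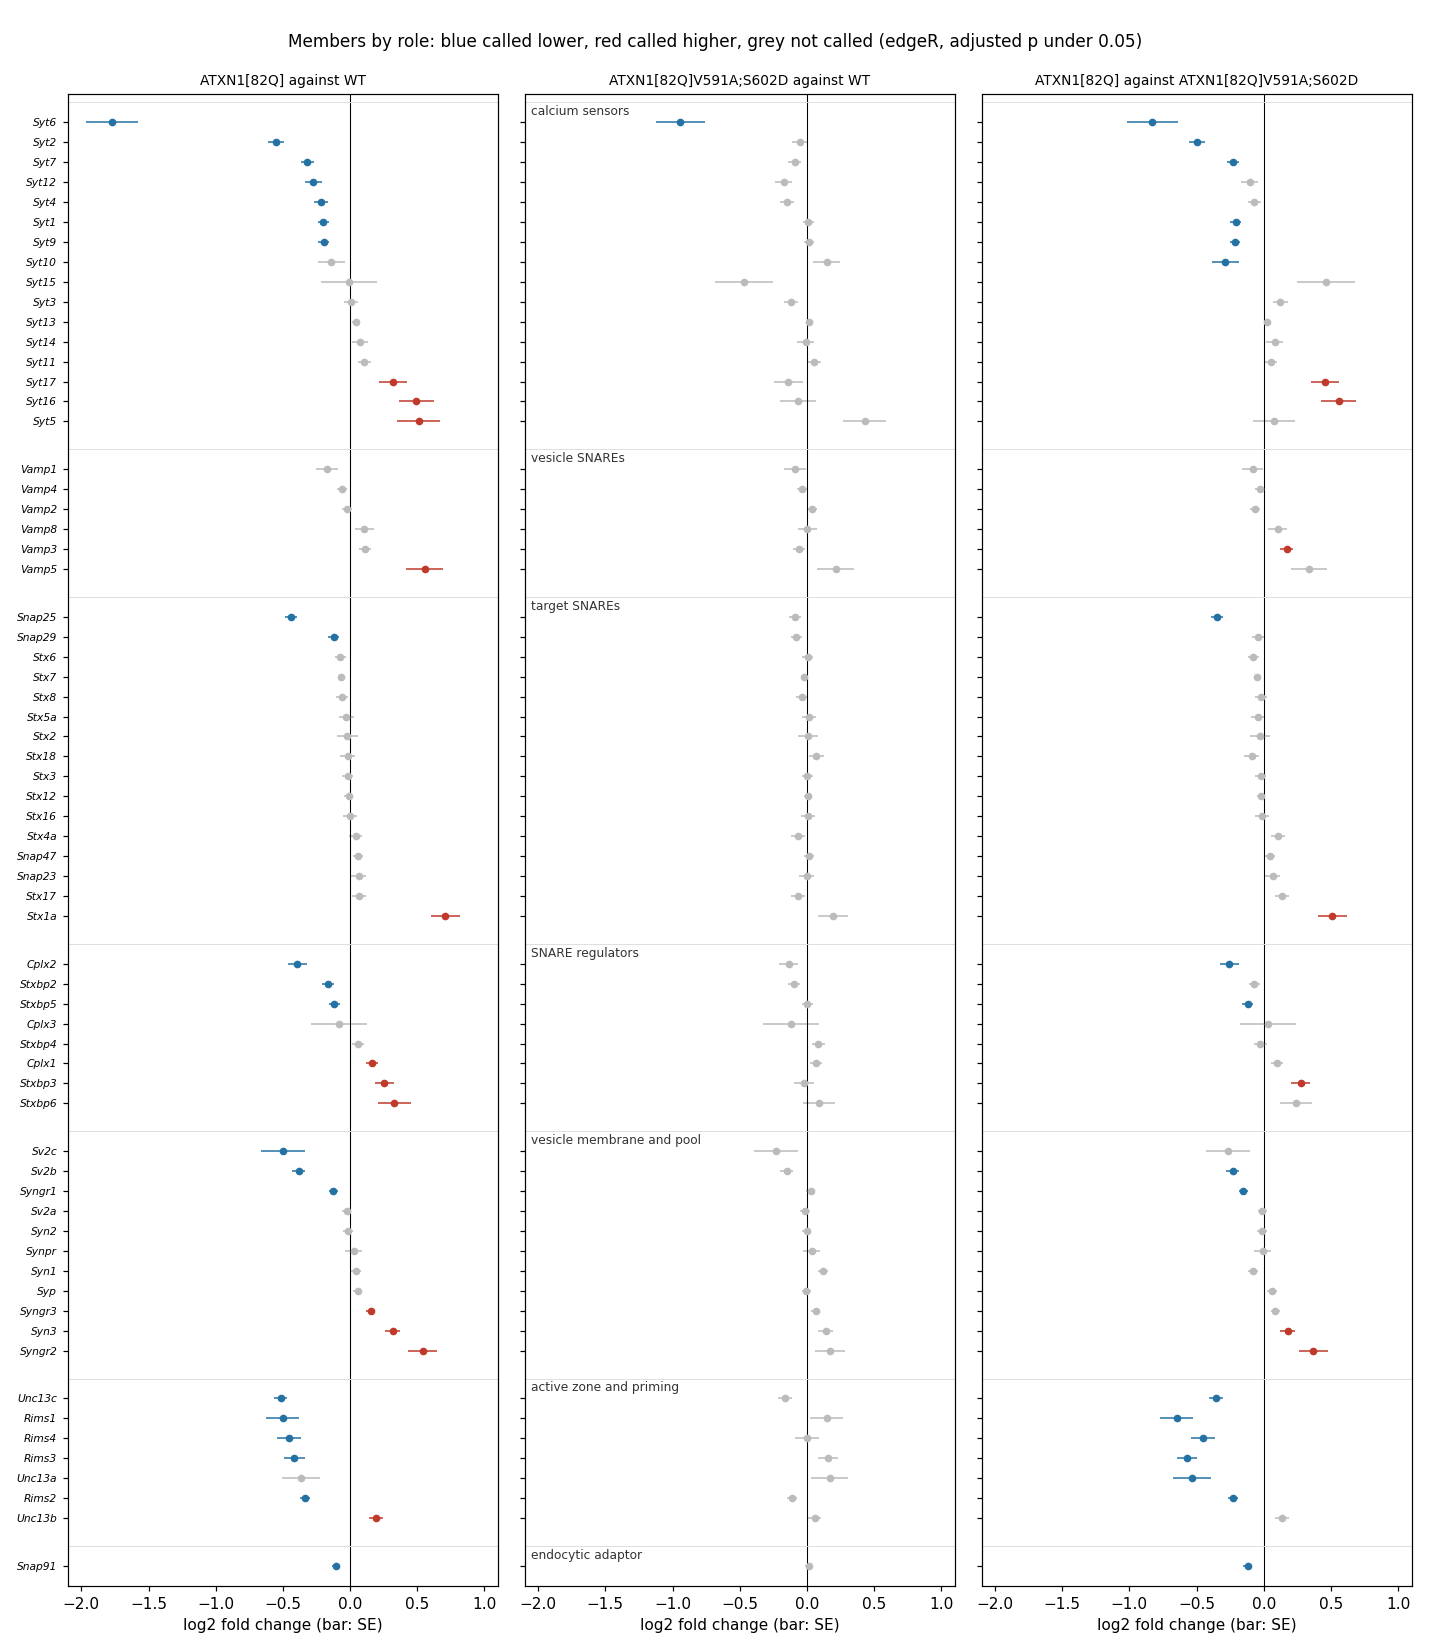
Log2 fold change of tested members in the 3 comparisons, ordered by role, with bars of 1 standard error. Blue points were called lower and red points higher in edgeR at an adjusted p under 0.05, and grey points were not called: blue points outnumber red ones in ATXN1[82Q] against WT, and the substituted genotype has 1 blue point, Syt6.

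Among calcium sensors Syt6 had the largest change. Its levels, in the order of replicates 1 to 5, were 8.62, 9.05, 10.8, 8.89 and 12.4 CPM in WT and 1.51, 2.74, 2.96, 3.05 and 4.24 CPM in ATXN1[82Q]. In the substituted genotype they were 4.23, 4.80, 5.88, 4.72 and 6.26 CPM. Every library of both transgenic genotypes lay below every WT library. The fall in ATXN1[82Q] was 3.41-fold (log2 fold change -1.77, SE 0.191, adjusted p = 2.42e-06). Syt6 belongs to the synaptotagmin group of Syt3 and Syt10, and it is scarce here: its reads over 5 libraries summed to 1923 in WT and 607 in ATXN1[82Q]. A stretch of 8.67% of its exon bases also belongs to the pseudogene Atg4a-ps.

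Syt2 and Syt1 are the fast calcium sensors of neurotransmitter release. Syt2 stood at 221, 260, 297, 263 and 252 CPM in WT, at 180, 183, 180, 160 and 182 CPM in ATXN1[82Q], and at 247, 249, 265, 236 and 253 CPM in the substituted genotype. The ATXN1[82Q] libraries all lay below the others, and the other genotypes overlapped. Syt2 fell 1.46-fold against WT (log2 fold change -0.55, SE 0.0600, adjusted p = 2.89e-06). Syt1 stood at 538, 571, 574, 563 and 514 CPM in WT, at 457, 496, 506, 475 and 473 CPM in ATXN1[82Q], and at 562, 564, 571, 520 and 562 CPM in the substituted genotype. Its fall was smaller, 1.15-fold (log2 fold change -0.20, SE 0.0416, adjusted p = 0.00164), again with no ATXN1[82Q] library as high as any WT library. Syt4, Syt7, Syt9 and Syt12 fell as well.

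Syt5, Syt16 and Syt17 were called higher, all at low levels. Syt16 averaged 2.44 ± 0.524 CPM in WT and 3.43 ± 0.377 CPM in ATXN1[82Q] (log2 fold change 0.49, adjusted p = 0.00825). Syt5 averaged 5.53 ± 1.07 and 7.88 ± 1.29 CPM (0.51, adjusted p = 0.0210), and Syt17 6.22 ± 0.930 and 7.75 ± 0.910 CPM (0.32, adjusted p = 0.0295). In all 3 the highest ATXN1[82Q] library was replicate 5, one of those rich in brainstem transcripts. Without replicates 2 and 5 of ATXN1[82Q] none of the 3 was called (adjusted p of 0.0674 for Syt16, 0.152 for Syt5 and 0.0643 for Syt17). Their log2 fold changes in that fit, which has fewer libraries, were 0.39, 0.37 and 0.31, so that of Syt17 hardly moved. Single libraries decided Syt5 (0.0526 without ATXN1[82Q] replicate 5) and Syt17 (0.0552, 0.0714 and 0.0782 without ATXN1[82Q] replicates 1, 4 and 5, and 0.0587 and 0.0808 without WT replicates 1 and 3).

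Vamp2 is the main vesicle SNARE of forebrain synapses, and Vamp1 serves many hindbrain and spinal synapses. Vamp2 stood at 939, 945, 943, 932 and 908 CPM in WT and at 863, 931, 905, 981 and 914 CPM in ATXN1[82Q]. It was not called (log2 fold change -0.02, 95% interval -0.10 to 0.05). Vamp1 stood at 383, 321, 398.2, 390 and 362 CPM in WT and at 302, 379, 292, 289 and 385 CPM in ATXN1[82Q]. Its high ATXN1[82Q] libraries are replicates 2 and 5, those rich in brainstem transcripts, and the other 3 lay below all WT libraries. Over all libraries Vamp1 was not called (log2 fold change -0.17, SE 0.0799, adjusted p = 0.114). Without replicates 2 and 5 it was lower (-0.34, adjusted p = 0.000765), and also with the brainstem marker mean in the fit (-0.31, adjusted p = 0.00473). Leaving out single libraries had the same effect for ATXN1[82Q] replicate 2 (adjusted p = 0.0392), ATXN1[82Q] replicate 5 (0.0304) and WT replicate 2 (0.0487), and over all alternatives the adjusted p ran from 0.000765 to 0.265.

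Vamp5, a SNARE of muscle and endothelium, averaged 2.19 ± 0.421 CPM in WT and 3.22 ± 0.356 CPM in ATXN1[82Q], without overlap. It rose (log2 fold change 0.56, SE 0.136, adjusted p = 0.00498). In the fewer libraries with Ttr under 100 CPM Vamp5 was at 0.55 and not called (adjusted p = 0.0865). Vamp3, which serves membrane recycling in many cell types, was not called in ATXN1[82Q] against WT (0.11, adjusted p = 0.0834). It was called without ATXN1[82Q] replicate 5 (0.0298) or WT replicate 1 (0.0428).

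Of the target SNAREs Snap25, the most abundant member, fell. It stood at 3514, 3503, 3857, 3692 and 3366 CPM in WT, at 2721, 2793, 2532, 2543 and 2645 CPM in ATXN1[82Q], and at 3408, 3507, 3424, 3132 and 3381 CPM in the substituted genotype. The ATXN1[82Q] libraries all lay below the others. The fall against WT was 1.36-fold (log2 fold change -0.44, SE 0.0454, adjusted p = 1.50e-06). Snap25 holds 21.5% of all reads on members in WT, 17.8% in ATXN1[82Q] and 20.5% in the substituted genotype. The members as a whole took 1.64 ± 0.0386% of reads on genes in WT, 1.53 ± 0.0222% in ATXN1[82Q] and 1.63 ± 0.0236% in the substituted genotype. Without Snap25 those shares were 1.28%, 1.26% and 1.29%.

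Stx1a, a plasma membrane syntaxin and partner of Snap25, rose. Stx1a stood at 2.94, 2.90, 2.68, 3.00 and 2.95 CPM in WT, at 4.46, 4.79, 4.06, 5.00 and 5.30 CPM in ATXN1[82Q], and at 2.70, 3.54, 2.92, 4.02 and 3.40 CPM in the substituted genotype. The rise against WT was 1.63-fold (log2 fold change 0.71, SE 0.109, adjusted p = 0.000102), with every ATXN1[82Q] library above all others. Stx1a remained scarce, with 976 reads over the 5 ATXN1[82Q] libraries. Snap29 fell, and 13 of the 17 tested target SNAREs, most of them known for traffic inside the cell, were not called.

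**Figure D2:**
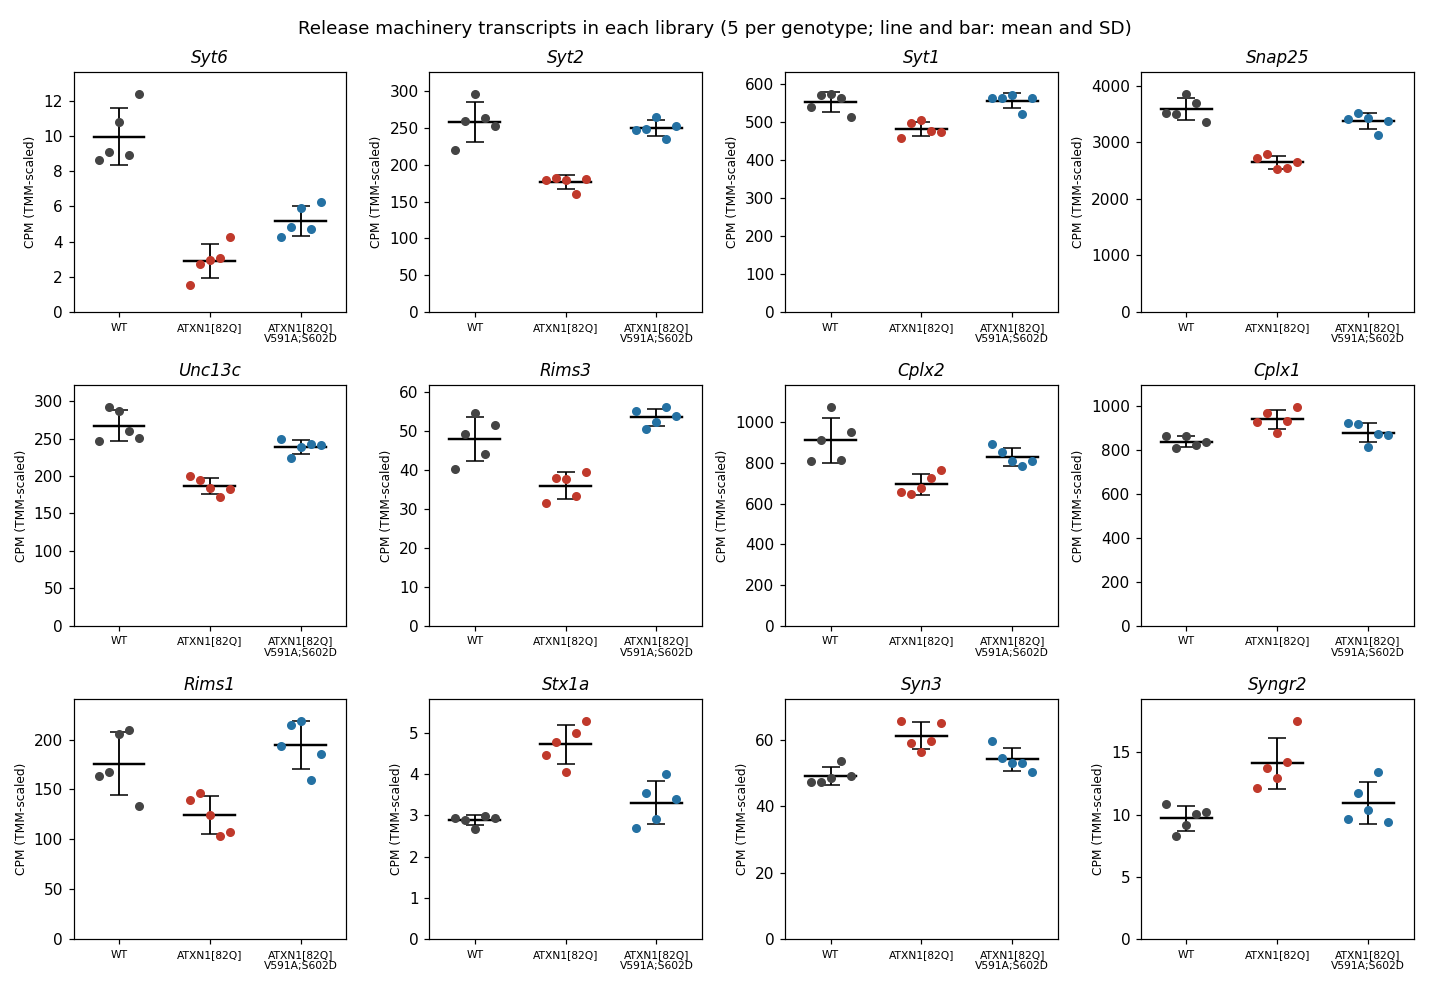
CPM of 12 members in each library (1 point per library, 5 per genotype), with the mean and SD, on axes that start at 0. Syt2, Snap25, Unc13c, Cplx2 and Syt6 are lower in every ATXN1[82Q] library than in every WT library, while Stx1a, Cplx1, Syn3 and Syngr2 are higher.

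Among SNARE regulators the complexins parted. Cplx2, known from granule cells and other excitatory neurons, stood at 808, 913, 1074, 812 and 950 CPM in WT and at 659, 646, 676, 724 and 766 CPM in ATXN1[82Q], and fell 1.31-fold (log2 fold change -0.39, SE 0.0716, adjusted p = 0.000507). Cplx1 stood at 862, 810, 862, 822 and 838 CPM in WT and at 927, 968, 879, 932 and 996 CPM in ATXN1[82Q], and rose 1.12-fold (0.16, SE 0.0437, adjusted p = 0.00843). Neither overlapped WT. The Cplx1 rise was lost without ATXN1[82Q] replicates 2 and 5 (0.12, adjusted p = 0.0841), with the brainstem marker mean in the fit (0.0748) and in libraries with Ttr under 100 CPM (0.210).

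Of the syntaxin-binding proteins Stxbp2 and Stxbp5 fell. Stxbp3 averaged 27.3 ± 2.87 CPM in WT and 32.6 ± 2.26 CPM in ATXN1[82Q] and rose (log2 fold change 0.26, adjusted p = 0.0111), and Stxbp6 averaged 14.2 ± 2.40 and 17.9 ± 3.22 CPM and rose (0.33, adjusted p = 0.0470). Without ATXN1[82Q] replicates 2 and 5 neither was called (0.19, adjusted p = 0.0963 for Stxbp3, and 0.13, adjusted p = 0.437 for Stxbp6). The call of Stxbp6 was also lost without ATXN1[82Q] replicate 1, 2 or 5 (0.0510, 0.109 and 0.137) or WT replicate 1, 2 or 3 (0.0735, 0.121 and 0.0951).

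Vesicle membrane genes split. Syp, the classical vesicle marker, averaged 944 ± 27.2 CPM in WT and 982 ± 18.8 CPM in ATXN1[82Q] and was not called (log2 fold change 0.06, 95% interval -0.01 to 0.13). The exons of Syp share 16.8% of their bases with Gm14703. Sv2a (-0.02, interval -0.09 to 0.04), Syn1 (0.04, interval -0.03 to 0.12) and Syn2 (-0.02, interval -0.08 to 0.05) were not called either. Those intervals hold no change larger than 0.13 on the log2 scale in either direction.

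Syn3, the least abundant synapsin here, stood at 47.3, 47.1, 48.3, 53.5 and 49.1 CPM in WT and at 65.7, 59.1, 56.3, 59.4 and 65.1 CPM in ATXN1[82Q]. It rose 1.25-fold without overlap (log2 fold change 0.32, SE 0.0536, adjusted p = 0.000262). Timp3 lies within Syn3 and shares 14.1% of its exon bases, and reads of the pair cannot be told apart without a counting strand. Syngr2, a synaptogyrin found mostly outside neurons, stood at 10.9, 8.25, 9.16, 10.1 and 10.2 CPM in WT and at 12.1, 13.7, 12.9, 14.3 and 17.6 CPM in ATXN1[82Q], and rose 1.45-fold (0.54, SE 0.111, adjusted p = 0.00141). Exons of other genes, mainly Gm20708 on the same strand, cover 7.66% of the exon bases of Syngr2. Syngr3 rose, and Sv2b and Syngr1 fell. Sv2c averaged 22.2 ± 5.78 and 15.7 ± 3.34 CPM and fell (-0.50, SE 0.164, adjusted p = 0.0280) with overlapping libraries. That call was lost without ATXN1[82Q] replicate 1, 3 or 4 (0.0531, 0.0650 and 0.0759) or WT replicate 3 or 4 (0.0854 and 0.0871).

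The active zone and priming genes moved most as a group, with a median log2 fold change of -0.41. Unc13c, the Munc13 priming factor of granule cells, stood at 247, 292, 287, 260 and 251 CPM in WT, at 200, 195, 184, 173 and 183 CPM in ATXN1[82Q], and at 249, 224, 238, 242 and 242 CPM in the substituted genotype. It fell 1.43-fold against WT (log2 fold change -0.52, SE 0.0508, adjusted p = 8.10e-07), and the ATXN1[82Q] libraries lay below all others. Granule cell markers fell with it (7 of 10, median log2 fold change -0.19), and their part in the fall was not tested. Unc13b, a close relative at much lower level, averaged 26.6 ± 1.51 and 30.4 ± 1.67 CPM and rose (0.19, adjusted p = 0.00793). In the fewer libraries with Ttr under 100 CPM Unc13b was at 0.24 and not called (adjusted p = 0.0609). Unc13a averaged 249 ± 47.6 and 193 ± 32.2 CPM and was not called (-0.36, SE 0.141, adjusted p = 0.0594). It was called without ATXN1[82Q] replicate 1 (0.0350) or WT replicate 5 (0.0102), and over all alternatives its adjusted p ran from 0.0102 to 0.399.

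The Rims genes all fell. Rims3 stood at 40.4, 49.3, 54.7, 44.2 and 51.5 CPM in WT, at 31.6, 38.1, 37.7, 33.3 and 39.5 CPM in ATXN1[82Q], and at 55.1, 50.5, 52.5, 56.2 and 53.8 CPM in the substituted genotype. Its log2 fold change against WT was -0.41 (SE 0.0758, adjusted p = 0.000536). Rims4 averaged 23.0 ± 2.81 and 16.8 ± 1.57 CPM (-0.45, adjusted p = 0.000993). Rims1 averaged 176 ± 31.8 and 124 ± 19.1 CPM with overlap (-0.50, SE 0.122, adjusted p = 0.00480), and was just not called with the brainstem marker mean in the fit (-0.40, adjusted p = 0.0505). Rims2 was lower in every ATXN1[82Q] library than in any WT library.

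In ATXN1[82Q] against WT the members' count of rises depended on the libraries and fit used, and that of falls less so. The share of all genes called in these fits is not given here. A change in the members' counts therefore cannot be told from a change in calls over all genes. Without ATXN1[82Q] replicates 2 and 5, 22 members fell, 21 of them among the 23, and 6 rose, all among the 12. With the brainstem marker mean in the fit 19 fell and 6 rose. In the 7 libraries with Ttr under 100 CPM (3 WT and 2 of each transgenic genotype) 18 fell and 4 rose. Under every alternative tried 13 members fell (among them Cplx2, Rims2, Rims3, Rims4, Snap25, Sv2b, Syt1, Syt2, Syt6, Syt7, Syt9 and Unc13c), and 3 rose (Stx1a, Syn3 and Syngr2).

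**Figure D3:**
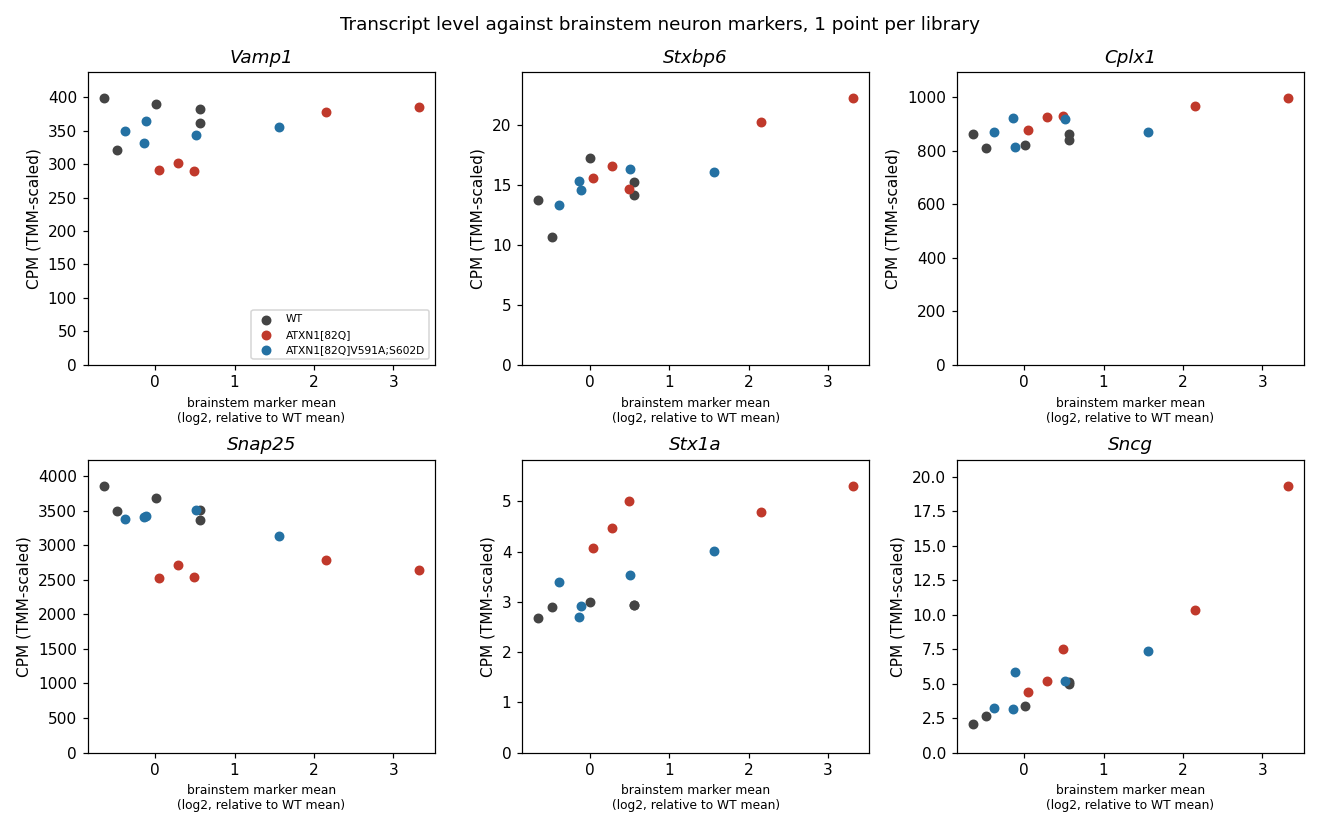
CPM of 5 members and of Sncg (vertical axis, from 0) against the mean log2 level of 5 brainstem neuron markers relative to WT (horizontal axis), 1 point per library. The red points at 2.15 and 3.32 are replicates 2 and 5 of ATXN1[82Q]: Vamp1, Stxbp6 and Sncg are higher there than in the other ATXN1[82Q] libraries, while Snap25 lies below and Stx1a above every WT library in all 5.

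The second comparison asks what remains when the expanded protein carries V591A and S602D. In the substituted genotype against WT, 1 member fell (Syt6) and 0 rose, of 67. Over all genes 1.2% fell and 0.208% rose, so the members' share was near that of all genes. At an unadjusted p under 0.05 in edgeR 9 of the 67 were lower and 4 higher, against 995 and 864 of all 15843 genes. At that threshold the share that was lower was larger among the members than among all genes. DESeq2 also called 1 and 0. The median log2 fold change of the members was 0.00, and in 2 members, both synaptotagmins, every library lay below WT (0 were higher in this way, and the shares over all genes were 2.03% lower and 1.13% higher).

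Syt6 averaged 9.95 ± 1.61 CPM in WT and 5.18 ± 0.853 CPM in the substituted genotype. It fell 1.92-fold (log2 fold change -0.94, SE 0.184, adjusted p = 0.0118). Without any single library the adjusted p stayed between 0.0131 and 0.0449, and in the libraries with Ttr under 100 CPM it was 0.155, with the log2 fold change at -0.88. For other members that fell in ATXN1[82Q], 95% intervals of the log2 fold change from WT were -0.17 to 0.07 for Syt2, -0.26 to -0.06 for Unc13c, -0.18 to -0.00 for Snap25 and -0.18 to 0.17 for Rims4. Sv2c was at -0.23 with a wider interval, -0.55 to 0.09, and was not called. For Unc13c that interval lies below 0, but its adjusted p was 0.164. The upper end for Snap25 rounds to -0.00, and Snap25 was not called. Stx1a was at 0.20 (interval -0.02 to 0.41). Syt5 was at 0.43, with an adjusted p of 0.269.

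The third comparison asks where the transgenic genotypes differ directly. In ATXN1[82Q] against the substituted genotype 20 members were lower and 7 higher, against 14.6% and 13.5% of all genes (members, 29.9% and 10.4%). At a mean log2 CPM of 7 or more 14 of 25 members were lower and 0 higher, against 38.1% and 6.63% of all genes at that level. In 16 and 5 members the libraries did not overlap, against 9.61% and 8.28% of all genes. Among marker lists 10 of 10 Purkinje and 10 of 10 granule cell markers were lower in ATXN1[82Q] (median log2 fold changes -0.84 and -0.25). Higher were 10 of 10 microglial, 7 of 7 oligodendrocyte, 5 of 6 astrocyte (1 lower) and 4 of 6 interneuron markers. Of 5 tested brainstem markers 1 was higher. The part of these marker changes in the differences between members was not tested. Both transgenic genotypes are set against the same WT libraries above, so the 3 comparisons share samples and are given side by side only.

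Of the active zone and priming genes 6 of 7 were lower. Rims1 stood at 139, 147, 125, 103 and 108 CPM in ATXN1[82Q] and at 194, 215, 219, 160 and 185 CPM in the substituted genotype, without overlap. Its difference was 1.57-fold (log2 fold change -0.65, SE 0.122, adjusted p = 0.00100). Rims3 was lower by 1.49-fold (-0.57, SE 0.0757, adjusted p = 5.32e-05), Rims4 by 1.37-fold (-0.45, adjusted p = 0.00145) and Unc13c by 1.28-fold (-0.36, SE 0.0508, adjusted p = 0.000104). Unc13a was lower too (193 ± 32.2 against 279 ± 47.5 CPM, -0.53, SE 0.141, adjusted p = 0.0104), with overlapping libraries. That call was lost in libraries with Ttr under 100 CPM (-0.33, adjusted p = 0.114) and with the brainstem marker mean in the fit (-0.40, adjusted p = 0.0542). The substituted genotype stood above WT in the mean for Rims1, Rims3 and Unc13a (log2 fold changes 0.15, 0.16 and 0.17), none of them called.

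Of the calcium sensors Syt2 was lower by 1.41-fold (log2 fold change -0.50, SE 0.0600, adjusted p = 2.20e-05), Syt1 by 1.16-fold (-0.21, adjusted p = 0.00156) and Syt6 by 1.78-fold (-0.83, SE 0.193, adjusted p = 0.00452). The Syt6 libraries just touched, with a highest ATXN1[82Q] value of 4.24 CPM and a lowest of 4.23 CPM in the substituted genotype. Syt16 and Syt17 were higher (0.56 and 0.45, adjusted p = 0.00457 and 0.00444). Of the SNAREs Snap25 was lower (-0.35, SE 0.0454, adjusted p = 4.79e-05), and Stx1a (0.51, SE 0.108, adjusted p = 0.00224) and Vamp3 (0.17, SE 0.0474, adjusted p = 0.0135) were higher. In libraries with Ttr under 100 CPM the calls of Syt1 (adjusted p = 0.0568), Syt16 (0.125), Syt17 (0.189) and Stx1a (0.0918) were lost. Their log2 fold changes in those fewer libraries were -0.22, 0.51, 0.38 and 0.49.

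Among regulators Cplx2 was lower (log2 fold change -0.26, adjusted p = 0.0134) and Stxbp3 was higher (0.28, adjusted p = 0.00823). Both calls were lost in the fewer libraries with Ttr under 100 CPM (-0.34, adjusted p = 0.0829, and 0.24, adjusted p = 0.0920). That of Stxbp3 was also lost without ATXN1[82Q] replicates 2 and 5 (0.21, adjusted p = 0.0721). Cplx1 was not called (0.10, interval 0.01 to 0.18, adjusted p = 0.105). Syn3 and Syngr2 were higher (0.18 and 0.37, adjusted p = 0.0202 and 0.0194). Without ATXN1[82Q] replicates 2 and 5 neither was called (0.0819 and 0.124), nor with the brainstem marker mean in the fit (0.0674 and 0.0576). Syn3 was also not called in libraries with Ttr under 100 CPM (0.359). The log2 fold change of Syn3 was 0.16 in each of those fits, and that of Syngr2 was 0.26 and 0.21. Single libraries decided Syn3 (0.0587 without replicate 5 of the substituted genotype, 0.0560 without ATXN1[82Q] replicate 1) and Syngr2 (0.0506 and 0.0545 without replicates 1 and 5 of the substituted genotype, 0.0588 without ATXN1[82Q] replicate 5). Unc13b was not called (0.13, adjusted p = 0.0551) and was called without replicate 2 of the substituted genotype (0.0398) or of ATXN1[82Q] (0.0324). Under every alternative 9 members were lower (among them Rims1, Rims3, Rims4, Snap25, Syt2, Syt6, Syt9 and Unc13c) and 1 higher (Vamp3).

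Some pairs of close relatives shifted in their read ratio and others did not. The ratios are given as a description without a test since the pairs were chosen after their values were seen. There were 1.09 ± 0.124 reads of Cplx2 per read of Cplx1 in WT, 0.739 ± 0.0484 in ATXN1[82Q] and 0.944 ± 0.0357 in the substituted genotype. For Unc13c per read of Unc13b the values were 10.1 ± 0.874, 6.16 ± 0.542 and 8.66 ± 0.652. In both pairs each ATXN1[82Q] library lay below all libraries of the other genotypes. Sv2b per read of Sv2a was 0.564 ± 0.0485, 0.440 ± 0.0320 and 0.513 ± 0.0300, and Syt2 per read of Syt1 was 0.468 ± 0.0402, 0.368 ± 0.0226 and 0.450 ± 0.00992. Vamp1 per read of Vamp2 ranged from 0.295 to 0.421 in ATXN1[82Q], a range that overlaps both other genotypes. A ratio shows unequal change and does not tell which gene of a pair changed.

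**Figure D4:**
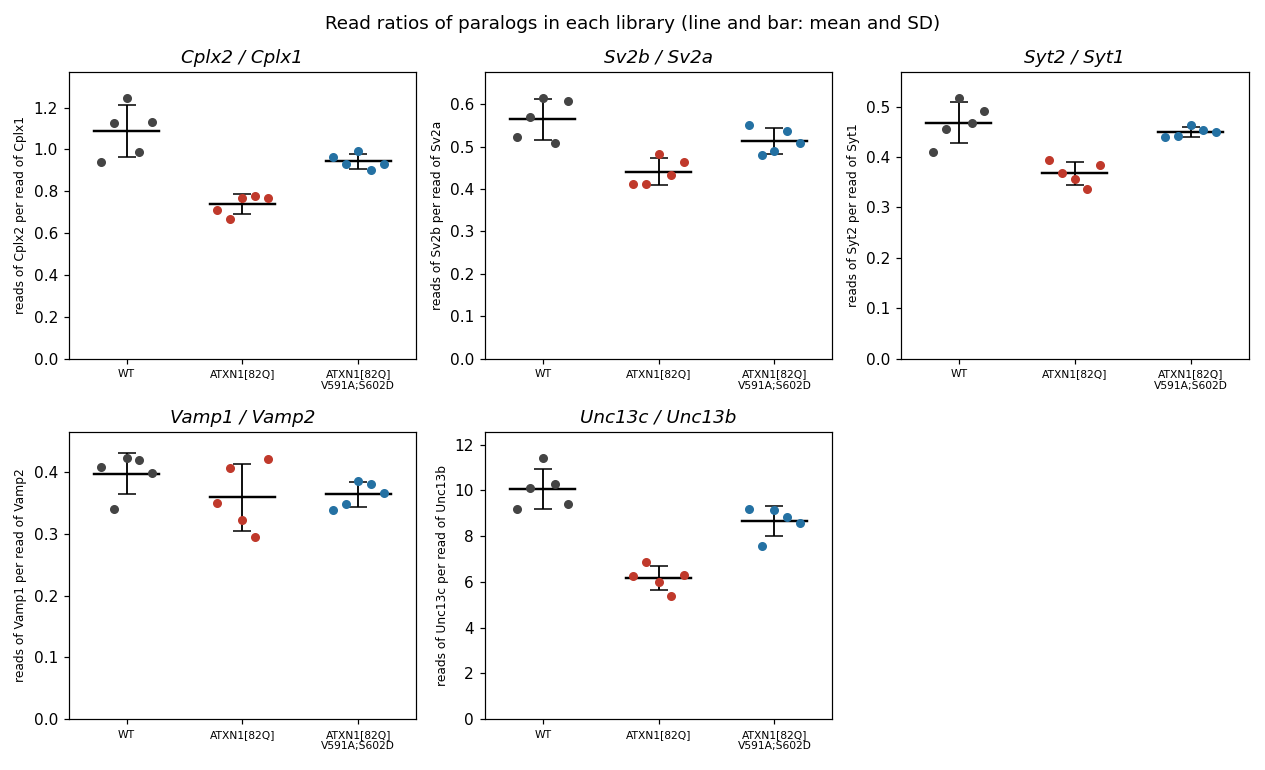
Reads of one gene per read of its relative in each library (1 point per library, 5 per genotype), with the mean and SD, on axes that start at 0. The ATXN1[82Q] libraries lie below both other genotypes for Cplx2 per Cplx1 and Unc13c per Unc13b, and overlap them for Vamp1 per Vamp2.

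A list of 50 other genes of vesicle release and recycling was looked at beside the members, and all 50 were tested. In ATXN1[82Q] against WT 26 fell and 4 rose (52.0% and 8.0%), with a median log2 fold change of -0.13. Over all genes tested 14.9% fell and 16.6% rose, and at a mean log2 CPM of 7 or more 37.4% and 8.02%. The list is not limited to that level and was not counted by level, here or in the next comparison. Against the substituted genotype 28 were lower and 3 higher (56.0% and 6.0%, against 14.6% and 13.5% of all genes). Of all genes at a mean log2 CPM of 7 or more 38.1% and 6.63% were lower and higher there. In the substituted genotype against WT 1 fell and 0 rose (2.0% and 0.0%, against 1.2% and 0.208% of all genes). At an unadjusted p under 0.05 in edgeR 5 of the 50 were lower and 3 higher, against 995 and 864 of all 15843 genes. Slc17a7, the vesicular glutamate transporter of granule cells, is in this list and among the granule cell markers.

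Doc2b, a calcium sensor of spontaneous and asynchronous release, had the largest fall of the list. It stood at 136, 148, 142, 143 and 140 CPM in WT, at 39.1, 35.0, 37.4, 39.4 and 38.7 CPM in ATXN1[82Q], and at 79.0, 95.1, 127, 91.6 and 101 CPM in the substituted genotype. The 3 genotypes did not overlap. The fall against WT was 3.74-fold in ATXN1[82Q] (log2 fold change -1.90, SE 0.0878, adjusted p = 7.68e-10) and 1.44-fold in the substituted genotype (-0.52, SE 0.0838, adjusted p = 0.00294), and ATXN1[82Q] was lower than the substituted genotype by 2.60-fold (-1.38, SE 0.0872, adjusted p = 7.03e-08). Syt6 and Doc2b were the genes of both lists called in all 3 comparisons.

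Rab3d, a vesicle GTPase, averaged 19.8 ± 1.39 CPM in WT and 12.2 ± 0.716 CPM in ATXN1[82Q] (log2 fold change -0.70, adjusted p = 8.21e-07), while its relative Rab3b averaged 10.1 ± 0.538 and 14.3 ± 1.12 CPM (0.51, adjusted p = 4.31e-05). Cadps2, a priming factor of dense-core vesicles known from granule cells, fell (-0.44, adjusted p = 0.000155), as did the active zone scaffold Erc1 (-0.43, adjusted p = 8.09e-05). Bsn, the giant scaffold Bassoon, averaged 367 ± 13.7 CPM in ATXN1[82Q] and 487 ± 43.8 CPM in the substituted genotype (-0.41, adjusted p = 0.000194). Sncg, a synuclein known from sensory and motor neurons, stood at 5.10, 2.63, 2.06, 3.38 and 4.96 CPM in WT and at 5.21, 10.3, 4.37, 7.49 and 19.3 CPM in ATXN1[82Q], highest in replicates 5 and 2. It was called higher (1.36, SE 0.369, adjusted p = 0.00949), and not without those libraries (0.64, adjusted p = 0.148).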

How the data were processed

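STAR 2.5.3a, HTSeq, DESeq2 and the build mm10 are named by the authors, per the submitters' processing notes. The deposited values are raw counts per gene, whole numbers with no normalisation. The sources used here give no strand, counting mode or annotation release, so overlapping genes may share or lose reads. Per the labels' protocols cDNA was amplified, so reads are not independent molecules. Reads outside genes (16.8% to 18.2%) were left out.

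Genes were tested with edgeR 4.0.16 (quasi-likelihood F-test, 15 libraries in 1 fit, TMM, filterByExpr with a minimum count of 10, Benjamini-Hochberg over 15843 genes), checked on simulated data. CPM are TMM-scaled, the prior count of log2 CPM was 2, and 95% intervals are 1.96 SE. Symbols were matched to GENCODE M21 (GRCm38) and RefSeq.

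Members, lists, named-gene rule and alternatives were chosen with earlier results of these data known. Named with values were, per comparison, the 8 largest falls and rises at a mean log2 CPM of at least 2, 4 called members of lower level, 17 standard release genes, and the 6 largest changes of the other release genes. Some members are not reported by name here. Figures used matplotlib 3.10.9.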

Additional observations from a re-analysis of the deposited data

Results flagged for a closer look

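In 4 of 93 groups of 5 libraries 1 library lay far from the rest by Dixon's criterion, and chance marks about 1 in 20 groups. Syt1 was 520 CPM in replicate 4 of ATXN1[82Q]V591A;S602D, against 562 to 571 CPM in the other 4. Syt16 was 2.08 CPM in replicate 1 of that genotype, against 2.36 to 2.45 CPM. Syt2 was 160 CPM in replicate 4 of ATXN1[82Q], against 180 to 183 CPM, and the call of Syt2 held without that library. Vamp3 was 45.3 CPM in replicate 5 of ATXN1[82Q], against 49.7 to 51.4 CPM, and without that library Vamp3 was called higher than in WT (adjusted p = 0.0298 in edgeR).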

How the results depend on the processing

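No called change of a named gene reversed its direction under any alternative. Of 114 log2 fold changes of named genes 19, none of them called, changed sign under at least 1 alternative. In libraries with Ttr under 100 CPM these included, in ATXN1[82Q]V591A;S602D against WT, Rims1 (-0.04) and Unc13a (-0.06), and in ATXN1[82Q] against WT Syn1 (-0.03). Of 212 recomputed counts 201 stayed within 1.5 times the value reported. Libraries with Ttr under 100 CPM, only 2 or 3 per genotype, gave 4 rises for the members in ATXN1[82Q] against WT, 0 falls in ATXN1[82Q]V591A;S602D against WT, and 9 lower and 3 higher in ATXN1[82Q] against ATXN1[82Q]V591A;S602D, where the other release genes had 12 lower and 1 higher. Without ATXN1[82Q] replicates 2 and 5 together 6 members and 2 of the other release genes rose in ATXN1[82Q] against WT. With the brainstem marker mean as a covariate 6 and 1 rose. Shares over all genes in these alternatives are not given here.

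With 1 library left out, members in ATXN1[82Q] against WT had 18 to 25 falls and 10 to 12 rises, and against ATXN1[82Q]V591A;S602D 18 to 20 lower and 6 to 9 higher. The other release genes that were higher in the latter comparison numbered 3 to 5 (5 without ATXN1[82Q] replicate 3). The cause of these differences was not tested. DESeq2 gave 24 falls and 13 rises for the 73 members in ATXN1[82Q] against WT. With a replicate block 21 members fell and 11 rose in that comparison, 1 fell in ATXN1[82Q]V591A;S602D against WT, and 19 were lower and 7 higher in ATXN1[82Q] against ATXN1[82Q]V591A;S602D. Libraries of the same number did not in general deviate together (4 of 15 pairs correlated above 0.1, median -0.109). With 5 libraries per genotype that cannot exclude that the numbers pair them. Depth limits scarce members: over 5 ATXN1[82Q] libraries Syt6, Vamp5, Syt16 and Stx1a had 607, 664, 709 and 976 reads. Without division by length Snap25 was first in WT, and Syp, Vamp2 and Cplx2 stood above Cplx1.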
